A study of Mus musculus with 20 samples.

Results

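The 68 mature miRNAs described here carry the names miR-297, miR-466, miR-467 or miR-669 and are listed on mouse chromosome 2 with a start between 10000000 and 11000000 (build mm9). They were chosen by name and position from 1137 mature miRNAs and 2127 small RNA features in the deposited count table. The 68 comprise 6 features named miR-297, 23 named miR-466, 10 named miR-467 and 29 named miR-669, and they span 51.6 kb, from position 10388303 to 10439868. No other miRNA feature was listed in that window. The rule itself uses no level, but this cluster was singled out with its levels in these libraries known. The counts and adjusted p-values below therefore describe its miRNAs and are no independent evidence about the cluster.

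Small RNA was sequenced from skin biopsies of FVB/N mice (an inbred strain) in 4 groups of 5 libraries. Healthy skin was treated with acetone, the solvent. Hyperplastic (thickened) skin, papillomas, which are benign, and cSCC (cutaneous squamous cell carcinomas) came from skin given DMBA, a mutagen that starts tumours, and PMA, a phorbol ester that promotes them. Treatment and lesion cannot be told apart in the comparisons with healthy skin, whereas papilloma and cSCC share the treatment. Whether the biopsies of a group are from different mice is not in the labels, so a p-value here reflects only sample spread, which may be technical. Age, sex and treatment times are not in the labels used here.

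Sfmbt2 encodes a Polycomb-group protein that binds methylated histones, and in mouse extraembryonic tissue it is imprinted, with expression from the paternal copy. One of its introns holds a large block of miRNA hairpins that arose by repeated local duplication in the rodent lineage. The block is best known from placenta and embryonic stem cells, and its loss impairs placental growth. In the GENCODE annotation of GRCm38, all 71 hairpin genes of these 4 names on chromosome 2 lie in intron 10 of the Sfmbt2-201 transcript, which has 23 exons. Of the 36 lettered names in the table, 35 matched a hairpin gene inside Sfmbt2. The name without a match was miR-466a, while 1 gene named miR-466 without a letter also lies inside Sfmbt2. Several names cover many copies in the RefSeq annotation of GRCm38.p6: 12 hairpin genes are named for miR-669a, 10 for miR-467a and 8 for miR-466b. A read of such a name cannot be assigned to one hairpin, and how the authors treated reads that match several places is not given in the sources used here. Members are therefore uncertain one by one, and their calls may rest partly on the same reads.

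Of the 68 cluster names, 0 matched the RefSeq table of mature sequences, while 8 of 10 features with the same 4 names at other genome positions did (GRCm38.p6). Those 10 serve below as a comparison for the cluster, and the 8 sequences show how repetitive these miRNAs outside it are. None of the 8 is named miR-297, and the cluster's own sequences were not examined. Capitals mark the seed, bases 2 to 8 from the 5′ end.
miR-466i-3p: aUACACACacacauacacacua
miR-466k: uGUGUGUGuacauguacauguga
miR-466q: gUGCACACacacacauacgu
miR-467f: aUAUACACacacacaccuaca
miR-467g: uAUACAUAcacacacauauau
miR-466j: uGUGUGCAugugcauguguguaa
miR-467h: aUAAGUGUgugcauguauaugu
miR-669n: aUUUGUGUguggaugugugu
None of the 8 shared a seed with another. A run of at least 8 letters that alternates A with C, or U with G (the same repeat on the other strand), was found in 6 of these 8. Among 1674 distinct mature mouse sequences in the same table, 13 held such a run (0.777%).

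Depth varied between libraries, from 1060615 mature miRNA counts in papilloma 6 to 6904298 in hyperplastic 7. Papillomas were the shallowest group, and papilloma 4 and papilloma 6 were the shallowest libraries. Levels are given as CPM, mature miRNA counts scaled to a common library size with TMM factors. Scaling matters here: against healthy skin, factors taken from the 293 abundant miRNAs alone moved the median fold change of all miRNAs up by 0.66 (log2) for papilloma and by 0.71 for cSCC. For hyperplastic skin the shift was 0.09 and for cSCC against papilloma 0.05. Other scalings moved the tumour-stage comparison too, as given with it.

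The cluster was scarce in skin. Its 68 miRNAs together made up 0.059% to 0.384% of the mature miRNA counts of a library. The most abundant of them, miR-466f-3p, ranked 165 among all mature miRNAs, with a mean of 234 CPM over the 20 libraries. The 6 leading miRNAs held 54.4% of the cluster's counts. Of the rest, 35 of the 68 had a mean of at most 20 counts per library. Total counts per miRNA ranged from 31 to 12720. The filter on low counts left 55 of the 68 for testing. The 13 that were not tested had means of at most 5.75 counts.

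Summed over all 68 miRNAs, the level in healthy skin was 782, 968, 1018, 926 and 1139 CPM in libraries 2, 3, 4, 5 and 7. In hyperplastic skin it was 897, 916, 847, 784 and 858 CPM in libraries 1, 2, 5, 7 and 8. These 2 groups overlapped and lay close together. In papillomas the sum was 926, 1233, 1785, 1342 and 1504 CPM in libraries 1, 3, 4, 5 and 6. In cSCC it was 3717, 3121, 1094, 4197 and 1906 CPM in libraries 1, 2, 3, 4 and 6. Of the 5 carcinomas, 4 lay above every papilloma, and cSCC 3 lay among the papillomas and near healthy skin. The group means (± SD, n = 5) were 967 ± 131 CPM for healthy skin, 860 ± 51 for hyperplastic skin, 1358 ± 319 for papillomas and 2807 ± 1285 for carcinomas. Without cSCC 3 the carcinoma mean was 3235 ± 990 CPM (SD, n = 4). In bulk biopsies, fewer cells that express a miRNA and less of it per cell cannot be told apart.

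The deposited counts, before any scaling, gave a like order for carcinoma and another for papilloma. Summed counts of the 68 miRNAs averaged 3073 ± 184 for healthy skin, 3592 ± 861 for hyperplastic skin, 2967 ± 612 for papillomas and 6782 ± 3212 for carcinomas (SD, n = 5). Papillomas thus had about as many cluster reads per library as healthy skin, although their libraries were shallower. The carcinomas held 9967, 7764, 2898, 9382 and 3899 counts in libraries 1, 2, 3, 4 and 6, of which libraries 1, 2 and 4 lay above every other library of the study. Of the miRNAs outside the cluster, 555 had a mean of 20 counts or less. They held 4163 ± 839 counts per carcinoma and 4360 ± 496 per papilloma (SD, n = 5). Those 555 are scarcer than the members that carry the cluster sum. In cSCC 1, for example, the 33 members with a mean of over 20 counts held 9277 of the 9967 counts. The 35 members as scarce as the 555 held 271 to 690 counts per carcinoma and 235 to 353 per papilloma, which overlapped.

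**Figure D1:**
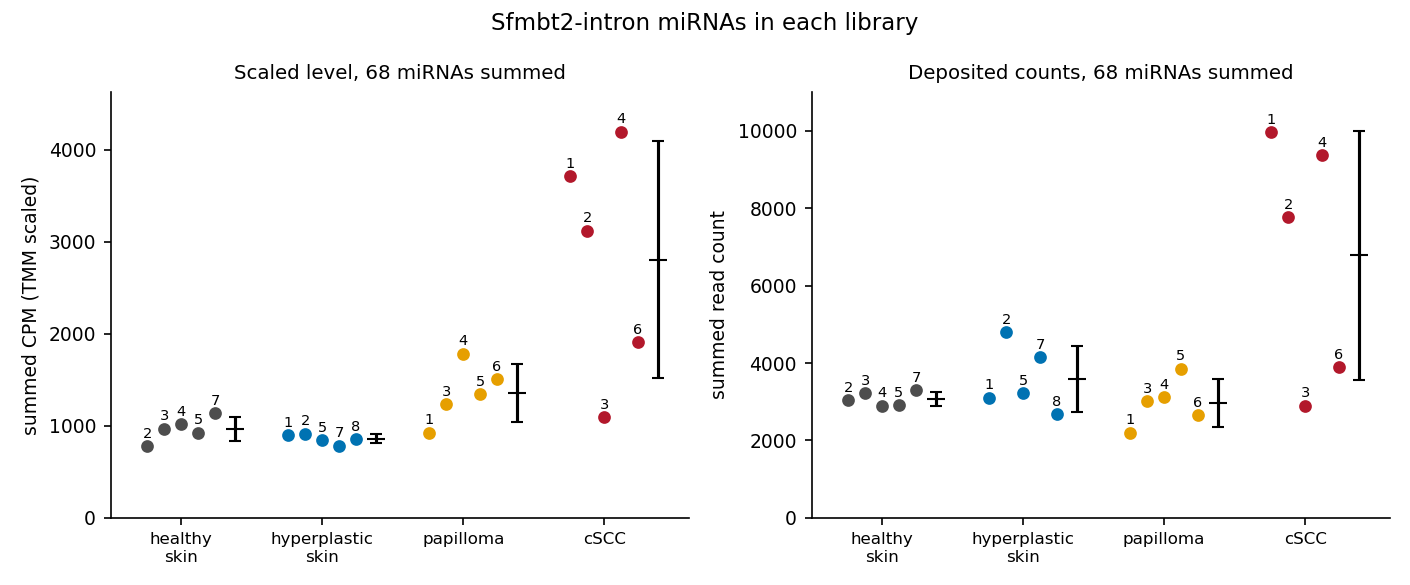
Summed level of the 68 miRNAs in each library, as TMM-scaled CPM (left) and as deposited read counts (right), in 4 groups of 5 libraries. Points are libraries with their label numbers, and the bar beside each group is its mean and SD. In CPM, 4 of the 5 carcinomas lie above every papilloma, and cSCC 3, at 1094 CPM, does not.

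The first comparison concerns treated skin that is labelled hyperplastic. Between hyperplastic and healthy skin, 0 of the 55 tested cluster miRNAs passed the threshold of 0.05 on the Benjamini-Hochberg adjusted p of edgeR's quasi-likelihood F test, as did 0% of all 850 miRNAs tested. At an unadjusted p under 0.05 edgeR found 2 of the 55, against 8.82% of all. DESeq2 called 0, with 1 at an unadjusted p under 0.05 (miR-467a-5p), against 10% of all. The median log2 fold change of the cluster was -0.14, against -0.01 over all miRNAs, and it turned positive under total-count scaling and without scaling. The 3 smallest p-values belonged to scarce members. miR-466l-5p had a mean of 2.47 ± 2.03 CPM in the hyperplastic libraries and 1.11 ± 0.44 in the healthy ones (SD, n = 5). Its log2 fold change was 1.09 ± 0.51 (SE), with an edgeR adjusted p of 0.526. Its hyperplastic mean rests on 1 library, with 21, 11, 6, 7 and 4 counts in libraries 1, 2, 5, 7 and 8. miR-467a-5p stood at 4.34 ± 2.71 against 8.51 ± 2.81 CPM (log2 fold change -0.98 ± 0.47, edgeR adjusted p = 0.555). For miR-669p-5p the levels were 2.21 ± 0.40 and 4.35 ± 2.76 CPM, with an edgeR adjusted p of 0.601.

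The second comparison sets papilloma against healthy skin. By edgeR, 16 of the 55 tested cluster miRNAs rose and 0 fell, against 24% of all miRNAs higher and 20.7% lower, so the share of risers was near the background. The median log2 fold change was 0.50, against 0.40 over all miRNAs tested. Scaling moved these values both ways. With factors from abundant miRNAs 29 rose (median 1.18), against 50.1% of all miRNAs higher, and on total counts without factors 28 did (1.18), against 48.1%. On counts without scaling the median was -0.10. There 3 rose (miR-297c-5p, miR-466b-5p and miR-466l-5p) and 3 fell (miR-297a-3p, miR-467c-5p and miR-669a-3p), against 7.06% of all higher and 25.5% lower. Without the 2 shallowest papillomas 4 rose and the median was -0.03, against 5.56% of all higher, and without papilloma 4 alone 9 rose, against 12.2%, and 1 fell (miR-467c-5p), with a median of 0.15. Fitted without the low-count filter, 9 of all 68 rose and 1 fell (miR-467c-5p), against 8.44% of all miRNAs higher.

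The 16 were spread unevenly over the 4 names. Of 19 tested miR-466 members, 10 rose (miR-466a-5p, miR-466b-5p, miR-466c-5p, miR-466f-5p, miR-466f-3p, miR-466h-5p, miR-466h-3p, miR-466l-5p, miR-466m-3p and miR-466n-5p), with a median over all 19 of 1.04. Of the 22 tested miR-669 members, 3 rose (miR-669c-3p, miR-669e-5p and miR-669h-3p). Among 6 miR-297 members 2 rose (miR-297a-5p and miR-297c-5p), and among 8 miR-467 members 1 did (miR-467b-3p). The difference between the names was not tested. Members named in these lists beyond the naming rule were chosen after their values were seen.

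miR-466f-3p, the most abundant of the cluster, stood at 87.1, 128, 182, 156 and 172 CPM in healthy libraries 2, 3, 4, 5 and 7. In papillomas 1, 3, 4, 5 and 6 it reached 186, 261, 406, 356 and 267 CPM, and all 5 lay above every healthy library. Its log2 fold change was 1.03 ± 0.31 (SE), with an edgeR adjusted p of 0.0109. Its deposited counts were 338 to 518 in healthy skin and 442 to 1023 in papilloma. They overlapped, and on unscaled counts the adjusted p of miR-466f-3p was 0.238. Without papilloma 4 it was 0.0862, without papilloma 5 it was 0.0675, without papillomas 4 and 6 it was 0.151 and without the low-count filter 0.114.

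miR-669c-3p gave the same picture, at 47.1, 52.5, 73.1, 54.5 and 67.0 CPM in healthy skin and 88.0, 110, 157, 145 and 160 CPM in papilloma. The groups did not overlap (log2 fold change 1.17 ± 0.26 SE, edgeR adjusted p = 0.00104). miR-466h-3p was at 23.2, 28.2, 53.0, 40.8 and 37.6 CPM in healthy skin and at 50.6, 65.7, 106, 82.6 and 103 CPM in papilloma. Here papilloma 1 lay within the healthy range (1.16 ± 0.29, edgeR adjusted p = 0.003). On counts without scaling, the adjusted p was 0.111 for miR-669c-3p and 0.117 for miR-466h-3p. Without papillomas 4 and 6 it was 0.0539 for miR-669c-3p and 0.126 for miR-466h-3p.

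Across the cluster, 13 of the 55 tested miRNAs had every papilloma above every healthy library, against 12.9% of all miRNAs tested. Among the better counted members, those with a mean of over 20 counts, the largest rises were those of miR-669e-5p (1.53 ± 0.32), miR-466f-5p (1.35 ± 0.36), miR-466m-3p (1.33 ± 0.32) and miR-669h-3p (1.31 ± 0.33, log2 with SE). Their edgeR adjusted p-values ranged from 0.000682 for miR-669e-5p to 0.00446 for miR-466f-5p. On unscaled counts all 4 missed the threshold, with adjusted p-values from 0.0504 for miR-669e-5p to 0.0931 for miR-466f-5p. Without papilloma 4 and papilloma 6 together, miR-669e-5p kept its call and the other 3 lost theirs.

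The third comparison, cSCC against healthy skin, gave the widest change. Of the 55 tested cluster miRNAs 46 rose and 0 fell (edgeR), against 26.2% of all miRNAs higher and 21.3% lower. The median log2 fold change was 1.54, against 0.35 over all miRNAs. Fitted without the low-count filter, 34 of all 68 rose, against 13.4% of all miRNAs, and on unscaled counts 31 of 55 did, against 13.3%. Every one of the 55 fold changes was above 0 under TMM scaling, the smallest at 0.004 for miR-466n-3p, while on unscaled counts 52 were. In 19 of the 55, every carcinoma lay above every healthy library, against 12.8% of all.

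All 4 names took part. Of the miR-297 members 6 of 6 rose, of miR-466 16 of 19, of miR-467 6 of 8 and of miR-669 18 of 22. The 9 that did not pass were miR-466a-5p, miR-466n-3p, miR-466o-3p, miR-467c-5p, miR-467e-5p, miR-669b-3p, miR-669e-3p, miR-669i and miR-669m-3p, and 7 of those had a mean of at most 20 counts. miR-467c-5p, with a mean of 37.1 counts, had a log2 fold change of 0.14 and was the flattest of the better counted members.

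miR-669a-5p had the largest fitted rise of the better counted members. Its level was 20.9, 32.7, 14.8, 5.74 and 15.9 CPM in healthy libraries 2, 3, 4, 5 and 7. In carcinomas 1, 2, 3, 4 and 6 it was 125, 140, 23.8, 170 and 52.3 CPM. Only cSCC 3 fell within the healthy range (log2 fold change 2.50 ± 0.45 SE, edgeR adjusted p = 7.24e-05). miR-669l-5p (2.35 ± 0.53), miR-466g (2.35 ± 0.40) and miR-669o-5p (2.28 ± 0.51) followed, with edgeR adjusted p-values between 3.85e-05 for miR-466g and 0.000802 for miR-669l-5p.

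The fourth comparison, cSCC against papilloma, compares the tumour stages, which share the agents DMBA and PMA. Age and treatment time may differ between them. By edgeR 24 of the 55 tested cluster miRNAs were higher in carcinoma and 0 lower, against 6.82% of all miRNAs higher and 4.71% lower. The median log2 fold change was 1.0, against -0.12 over all miRNAs tested. Fitted without the low-count filter, 24 of all 68 were higher, against 5.19% of all miRNAs. On counts without scaling 24 of 55 were higher, against 6.35%. Without cSCC 3 the count was 27, against 6.78%. In 0 of the 55 was every carcinoma above every papilloma (1.88% of all miRNAs).

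The 24 comprised 4 of 6 tested miR-297 members, 5 of 19 miR-466, 5 of 8 miR-467 and 10 of 22 miR-669. They were miR-297a-5p, miR-297a-3p, miR-297b-3p and miR-297c-3p, then miR-466b-3p, miR-466c-3p, miR-466d-3p, miR-466g and miR-466p-3p, and miR-467a-5p, miR-467a-3p, miR-467d-3p, miR-467e-5p and miR-467e-3p. The miR-669 members were miR-669a-5p, miR-669a-3p, miR-669a-3-3p, miR-669c-5p, miR-669f-5p, miR-669l-5p, miR-669m-5p, miR-669o-5p, miR-669o-3p and miR-669p-5p. With the replicate number as a block, 15 passed, against 5.53% of all miRNAs higher. On total counts without factors 14 did, against 3.76%, and with factors from abundant miRNAs 21, against 6.94%.

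miR-297a-3p stood at 30.3, 39.2, 43.6, 27.2 and 49.9 CPM in papillomas 1, 3, 4, 5 and 6. In carcinomas 1, 2, 3, 4 and 6 it was at 226, 259, 46.8, 335 and 98.3 CPM. The healthy libraries held 36.8 to 63.2 CPM and the hyperplastic ones 34.1 to 47.7, so 4 carcinomas stood above every other library and cSCC 3 among them. Its log2 fold change of cSCC against papilloma was 2.35 ± 0.37 (SE), with an edgeR adjusted p of 0.000279. Papilloma itself did not pass against healthy skin (-0.51 ± 0.36, edgeR adjusted p = 0.246), and on unscaled counts miR-297a-3p was lower there by a log2 of 1.05 (-1.05, adjusted p = 0.0293).

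miR-297b-3p behaved alike, with 13.5, 22.4, 15.5, 17.8 and 21.5 CPM in papilloma and 107, 126, 20.0, 185 and 53.3 CPM in carcinoma. Its fold change was 2.44 ± 0.41 (edgeR adjusted p = 0.000279). In counts, miR-297b-3p had 27 to 55 reads per papilloma and 288, 314, 53, 413 and 109 per carcinoma. miR-669m-5p was at 13.9, 29.0, 29.3, 14.6 and 22.1 CPM in papilloma and at 129, 148, 25.7, 161 and 58.7 CPM in carcinoma (2.27 ± 0.41, edgeR adjusted p = 0.000618). In each of these, cSCC 3 alone overlapped the papillomas.

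miR-669a-3p carries a name shared by 12 hairpin genes. In the healthy libraries its level was 135, 177, 128, 161 and 242 CPM, and in papillomas 86.4, 125, 152, 112 and 107 CPM. The carcinomas held 724, 399, 88.0, 651 and 232 CPM, and cSCC 3 was below all healthy libraries. Against papilloma the log2 fold change was 1.85 ± 0.38 (SE, edgeR adjusted p = 0.00205), and against healthy skin it was 1.31 ± 0.38 (edgeR adjusted p = 0.00563). On unscaled counts the adjusted p of miR-669a-3p against healthy skin was 0.0679.

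miR-467a-3p comes from a name with 10 hairpin genes. It stood at 61.8, 69.6, 69.9, 78.4 and 83.2 CPM in healthy skin and at 63.6, 77.5, 112, 96.2 and 97.5 CPM in papilloma. In carcinoma it was at 427, 266, 95.9, 585 and 223 CPM, and every carcinoma was above every healthy library. The log2 fold change was 1.84 ± 0.34 (SE) against papilloma, with an edgeR adjusted p of 0.000766, and 2.14 ± 0.34 against healthy skin, with 1.91e-05. Its p in the test across the 4 groups was among the 4 smallest in the cluster (edgeR adjusted p = 2.73e-06), with those of miR-669a-5p (3.1e-06), miR-297a-3p (4.04e-06) and miR-669m-5p (5.4e-06). In that test 49 of 55 passed, against 56% of all miRNAs.

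Further members of this kind with a mean near 20 to 40 counts were miR-669f-5p (2.31 ± 0.47), miR-467d-3p (2.08 ± 0.43) and miR-669o-5p (1.91 ± 0.51, log2 with SE). Their edgeR adjusted p-values were 0.00202 for miR-669f-5p and miR-467d-3p and 0.0137 for miR-669o-5p. miR-669p-5p, with a mean of 18.9 counts, had the largest fold change of cSCC against papilloma (2.59 ± 0.53, edgeR adjusted p = 0.00202). Its counts were 5, 10, 5, 3 and 10 in papilloma and 80, 54, 11, 68 and 15 in carcinoma.

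Of the 24 calls, 14 were kept in every setting other than the one restricted to abundant miRNAs, and with any 1 library left out, and 10 were lost somewhere. The 10 were miR-297a-5p, miR-466c-3p, miR-466g, miR-466p-3p, miR-467a-5p, miR-467e-5p, miR-467e-3p, miR-669a-3-3p, miR-669l-5p and miR-669o-5p. All 10 were lost on total counts without factors, and 9 of them, all but miR-669a-3-3p, with the replicate block. Factors from abundant miRNAs lost 4 (miR-297a-5p, miR-466p-3p, miR-467a-5p and miR-669l-5p), and leaving out 1 library lost 6 in all. miR-669l-5p (1.64 ± 0.52, edgeR adjusted p = 0.0408) lost its call when cSCC 1, 2 or 4 or papilloma 1, 3 or 5 was left out, with adjusted p-values from 0.058 to 0.121. miR-467a-5p (1.43 ± 0.46, adjusted p = 0.0444) lost it without cSCC 1 or 4 or papilloma 1, 3 or 5, with 0.068 to 0.152. With the replicate block, miR-466g had an adjusted p of 0.0731 and miR-669o-5p one of 0.0885.

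**Figure D2:**
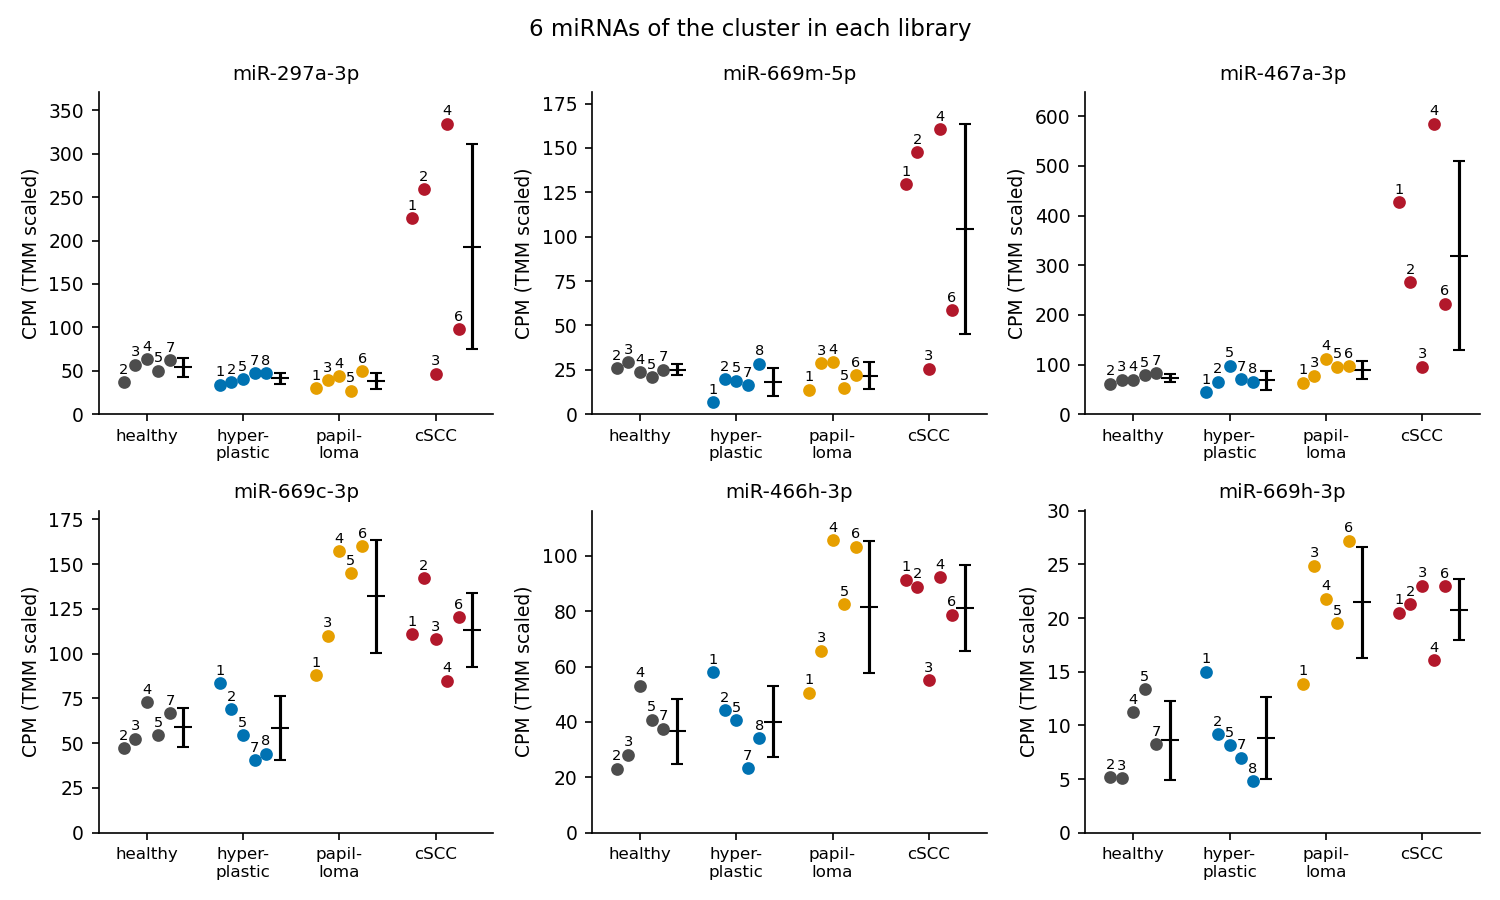
CPM of 6 cluster miRNAs in each library, with label numbers, in 4 groups of 5 libraries. The bar beside each group is its mean and SD. In the upper row (miR-297a-3p, miR-669m-5p, miR-467a-3p) carcinomas 1, 2, 4 and 6 stand above every papilloma, and in the lower row (miR-669c-3p, miR-466h-3p, miR-669h-3p) papillomas and carcinomas cover like ranges.

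Other members differed less between the tumour stages. They form no separate kind, since values in between occurred. Examples not past the threshold were miR-466a-3p, with a log2 fold change of 1.19, and miR-467c-5p, with 0.75. miR-466f-3p was at 384, 412, 166, 536 and 278 CPM in carcinomas 1, 2, 3, 4 and 6, which overlapped the papillomas (cSCC against papilloma 0.27 ± 0.31 log2, edgeR adjusted p = 0.693). miR-669c-3p was at 111, 142, 108, 85.0 and 120 CPM in carcinoma (-0.22 ± 0.26, edgeR adjusted p = 0.693). miR-466h-3p had means of 81.2 ± 15.6 CPM in carcinoma and 81.5 ± 23.8 in papilloma (SD, n = 5 each). With SEs of 0.26 to 0.31 these fits do not show that the levels are equal.

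Likewise not past the threshold were miR-466m-3p (-0.38 ± 0.32), miR-669h-3p (-0.04 ± 0.32), miR-669e-5p (0.05 ± 0.31) and miR-466f-5p (0.47 ± 0.34). These are the members with the largest rises of papilloma against healthy skin given above. The 2 comparisons share the papilloma libraries, so the values are set side by side and nothing is read from their relation.

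Summed levels are given for the 24 members of the carcinoma call and the other 44. The 24 were chosen by that very contrast, so their rise from papilloma to carcinoma is built in. The other 44 are what that choice left over, so their smaller difference is built in as well. These 24 summed to 540 ± 80 CPM for healthy skin, 447 ± 67 for hyperplastic skin, 508 ± 108 for papillomas and 1854 ± 1058 for carcinomas (SD, n = 5). In carcinomas 1, 2, 3, 4 and 6 the sum was 2634, 2003, 492, 3046 and 1096 CPM. The other 44 members summed to 427 ± 86, 414 ± 107, 850 ± 220 and 953 ± 238 CPM in the same order (SD, n = 5). The 10 miRNAs of the same names at other positions ran at 268 ± 66, 305 ± 98, 705 ± 129 and 605 ± 75 CPM in the same order (SD, n = 5 each).

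Of those 10, 9 rose in papilloma and 9 in cSCC against healthy skin by edgeR, and 0 differed between cSCC and papilloma, where 0 also had an unadjusted p under 0.05. Their median log2 fold change of cSCC against papilloma was -0.24. miR-466i-5p, the most abundant of them on chromosome 13, stood at 457 ± 77 CPM in papillomas, 360 ± 79 in carcinomas and 168 ± 49 in healthy skin (SD, n = 5; cSCC against papilloma -0.34 log2, edgeR adjusted p = 0.5). miR-466i-3p, miR-466k and miR-466q, whose sequences are printed above, had fold changes of 0.63, -0.50 and -0.50 there. Whether the cluster differs from these 10 was not tested.

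**Figure D3:**
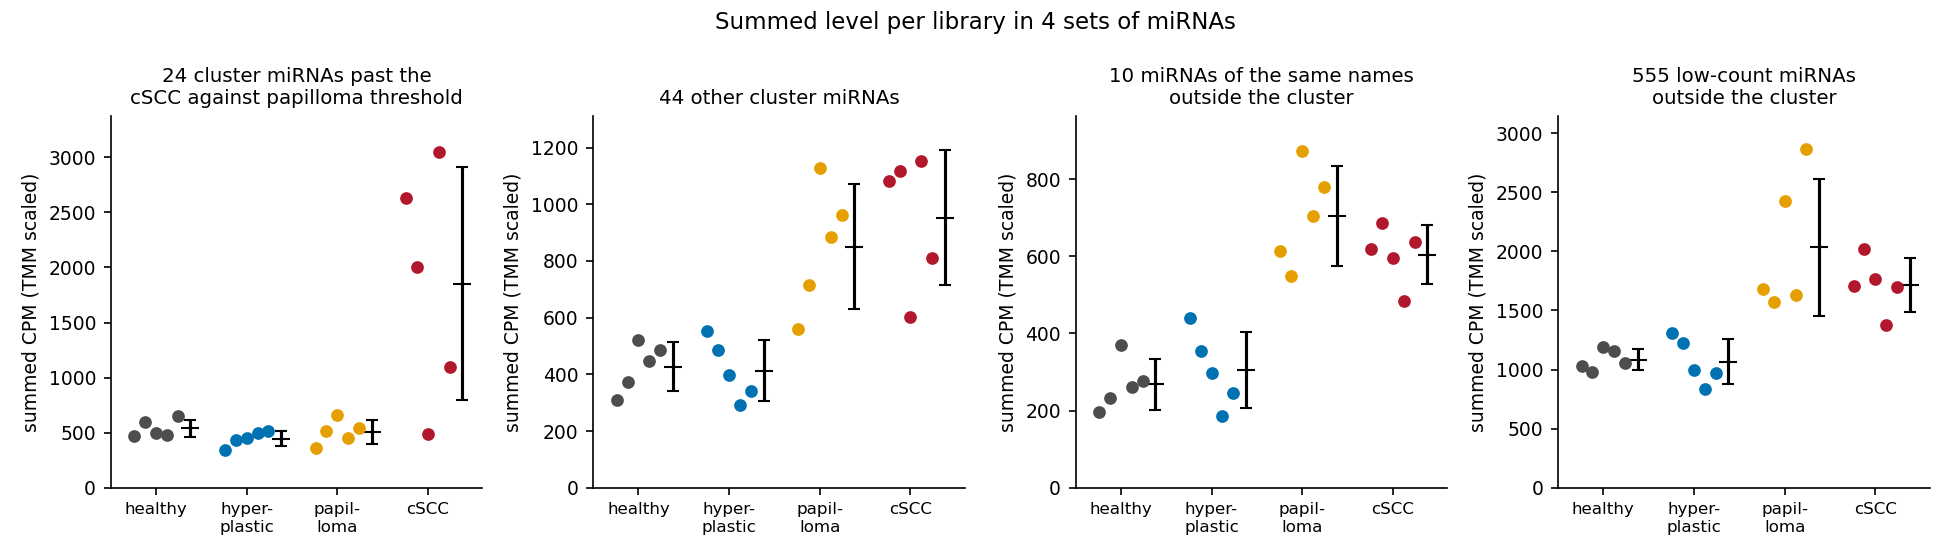
Summed CPM per library in 4 sets of miRNAs, by group, with mean and SD beside the points: the 24 cluster miRNAs past the cSCC against papilloma threshold, the other 44, the 10 of the same names elsewhere and 555 scarce miRNAs outside the cluster. In the first set, which was chosen by its carcinoma values, papillomas reach 656 CPM and carcinomas 3046. In the other 3 sets papillomas and carcinomas overlap. For the other 44, left over by the same choice, a small difference is built in.

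The chromosome 12 window of the Dlk1-Dio3 locus, another large imprinted miRNA block, gives a second comparison. Of its 86 tested miRNAs 27 rose in papilloma and 25 in cSCC against healthy skin (edgeR). Between cSCC and papilloma 3 were higher there, with a median log2 fold change of -0.17, against 24 of 55 and 1.0 in the Sfmbt2 cluster. This difference between the loci was not tested either.

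Members past and not past the threshold lay mixed along the listed positions. For names with several hairpin genes, the listed position need not be where the reads arise. miR-669a-3p, for example, is listed at 15.1 kb from the first member and miR-669a-5p at 34.7 kb. Whether neighbouring hairpins differ is therefore not shown by these positions. In the first 10 kb, 3 of 17 tested miRNAs passed in cSCC against papilloma and 5 in papilloma against healthy skin. Beyond 35 kb the numbers were 14 and 9 of 27. Between those limits 7 and 2 of 11 passed. miR-669f-5p and miR-669e-5p, which start 0.571 and 0.86 kb from the first member, had log2 fold changes of 2.31 and 0.05 for cSCC against papilloma. At the far end miR-297a-3p, at 50.4 kb, and miR-669h-3p, at 51.5 kb, had 2.35 and -0.04. Among the 33 members with a mean of over 20 counts, 14 of 32 neighbouring pairs along the cluster held 1 member that passed and 1 that did not.

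**Figure D4:**
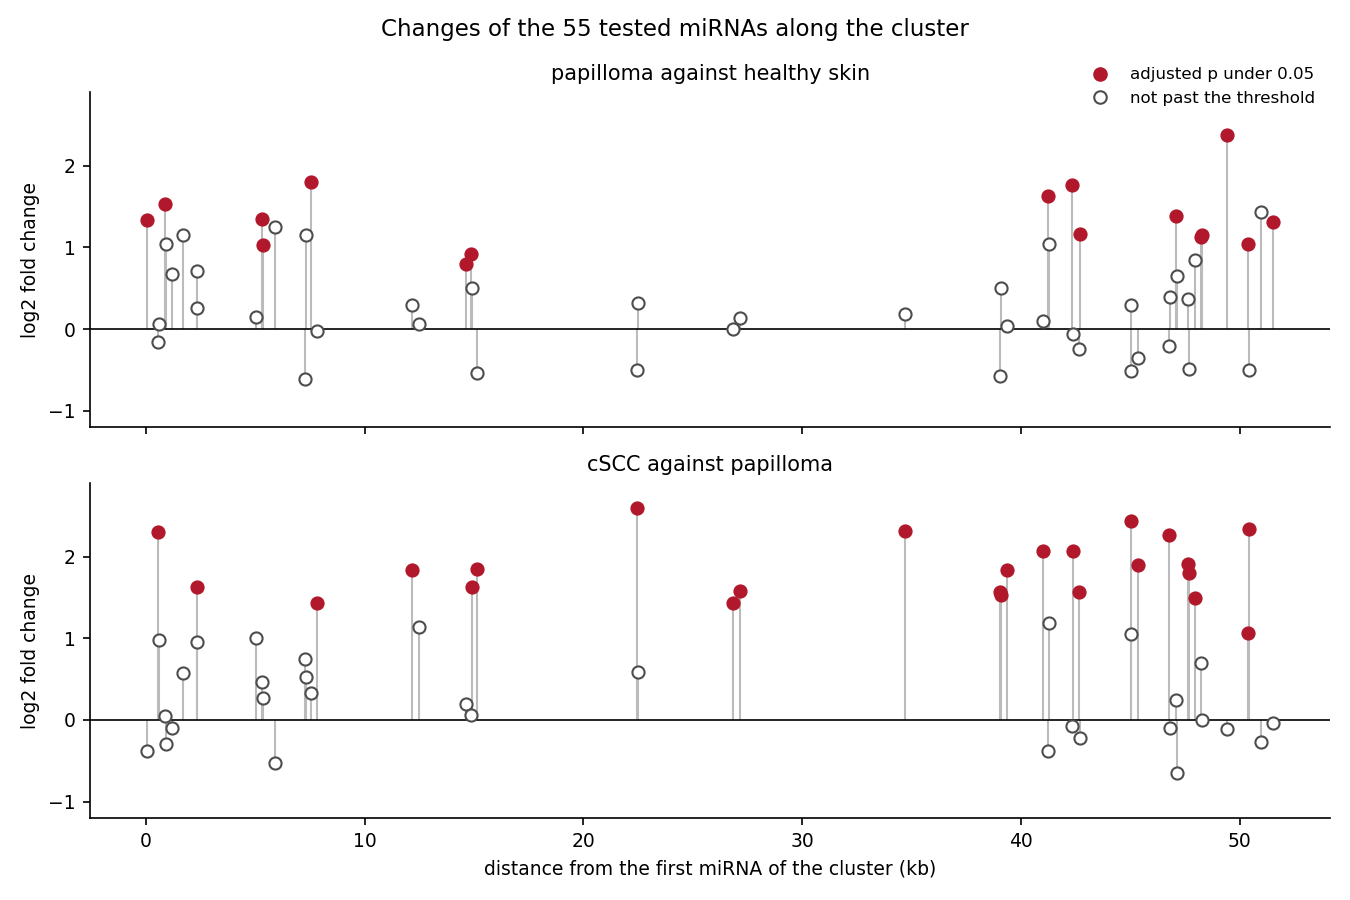
Log2 fold change of the 55 tested cluster miRNAs against distance from the first member in kb, for papilloma against healthy skin (upper panel) and cSCC against papilloma (lower panel). Filled points passed an adjusted p of 0.05 in edgeR and open points did not. Members with fold changes above 2 and near 0 stand next to each other in the lower panel, by listed position.

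Arms of one hairpin name could part as well. Both arms were listed for 30 hairpin names, and the 3p arm had more counts in 19 of them and the 5p arm in 11. Of 20 names with both arms tested in cSCC against papilloma, 5 had both arms higher (miR-297a, miR-467a, miR-467e, miR-669a and miR-669o), 9 had 1 arm higher and 6 had neither. The 3p share of miR-297c reads was 22.4% in papilloma and 54.9% in cSCC, over pooled counts of each group. That of miR-669f was 61.6% and 39.3%, and that of miR-669m 15.1% and 3.45%. The difference between arms was not tested.

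By copy number, 11 of 19 tested members of names with 2 or more hairpin genes were higher in cSCC than in papilloma, and 13 of 34 of names with 1. Their medians were 1.43 and 0.85 (log2). This difference was not tested. The miR-466a arms, whose name matched no lettered hairpin gene, are in neither set. Copy numbers are those of the RefSeq annotation, and FVB/N may carry others.

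The 5 carcinomas differed among themselves more than any other group. For the 33 members with a mean of over 20 counts, cSCC 3 was the lowest carcinoma in 27. cSCC 4 was the highest in 16, cSCC 1 in 9 and cSCC 2 in 6. cSCC 1, 2, 4 and 6 lay above every papilloma for 25, 26, 25 and 17 of the 33, and cSCC 3 for 0. Among papillomas, library 4 was the highest in 18 of the 33 and library 1 the lowest in 21.

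**Figure D5:**
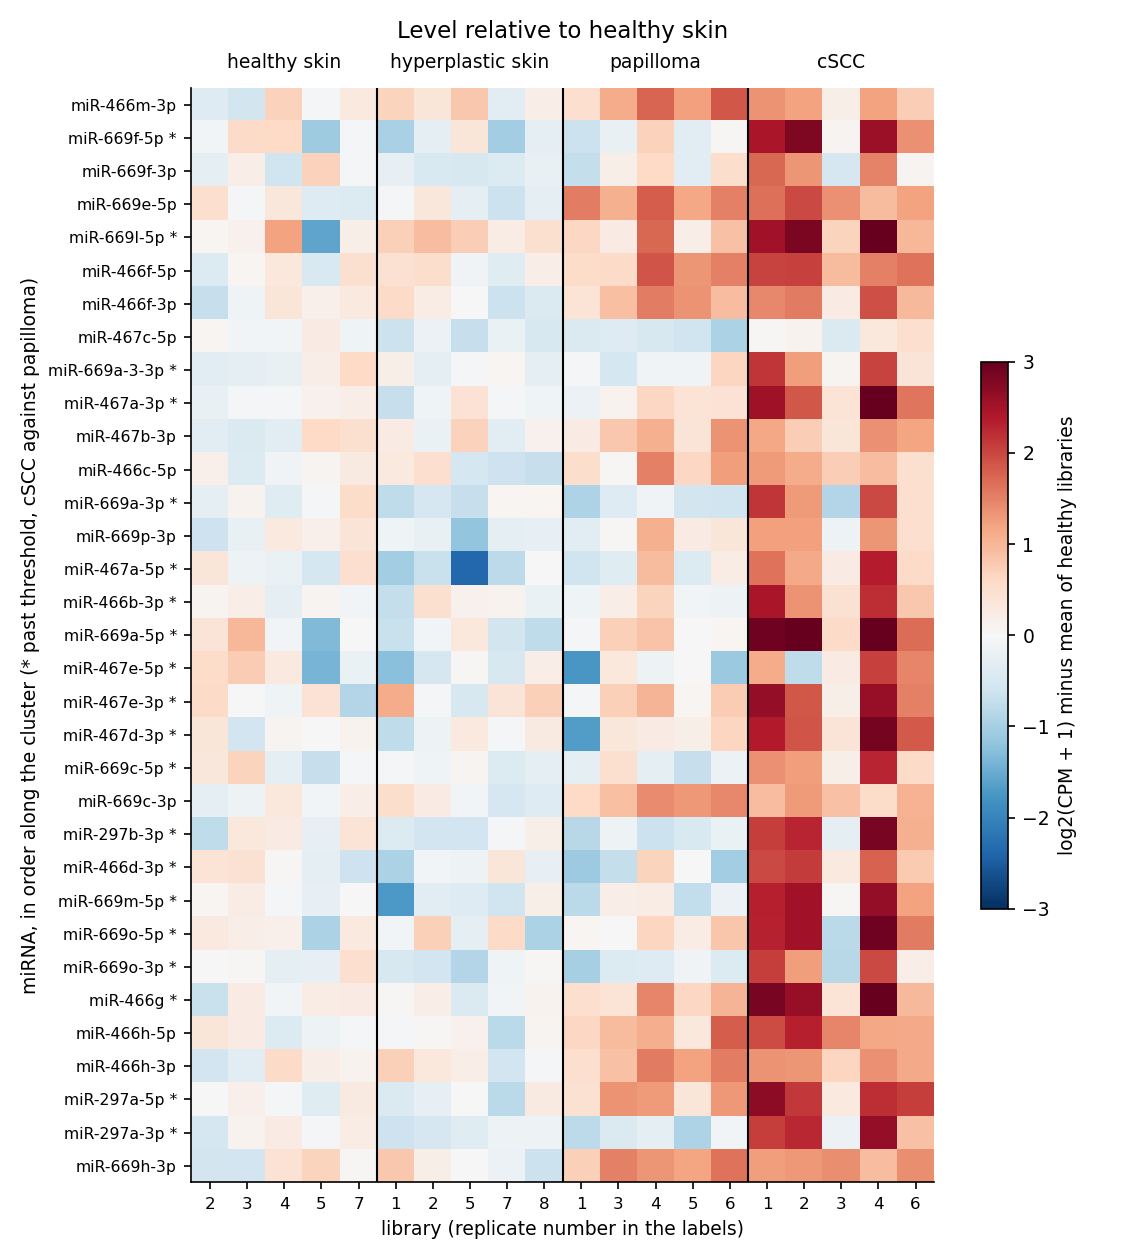
Level of the 33 cluster miRNAs with a mean of over 20 counts in each library, as log2(CPM + 1) minus the mean of the 5 healthy libraries, with colours limited to the range from -3 to 3. Rows follow the order along the cluster, and stars mark miRNAs past the threshold in cSCC against papilloma. Red cells make up most of the columns of cSCC 1, 2 and 4, are paler in cSCC 6 and nearly absent from cSCC 3 in starred rows. An exception is miR-467e-5p in cSCC 2, at 6.03 CPM against a healthy mean of 12.4.

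Most cell type marker sums differed between the stages, those of erythroid markers overlapped, and their part in these results was not tested. All 16 marker miRNAs were found, and 0 of them were at 0 counts in any library. Leukocyte markers (4 of 4) summed to 47619 to 109473 CPM in cSCC, against 14898 to 60579 in papilloma, 9620 to 22769 in hyperplastic skin and 18550 to 35817 in healthy skin. The papilloma maximum was that of papilloma 6 alone, with 14898 to 21318 CPM in the other papillomas. Keratinocyte markers (miR-203-3p and miR-205-5p, 2 of 2) summed to 71048 to 137655 CPM in cSCC, with cSCC 3 the highest, against 103681 to 200221 in papilloma and 146128 to 240420 in healthy skin. Striated muscle markers (4 of 4) were at 1561 to 3616 CPM in cSCC, 1753 to 9174 in papilloma and 19320 to 77334 in healthy skin. Smooth muscle markers (2 of 2) summed to 13902 to 24309 CPM in cSCC, 16213 to 26057 in papilloma and 53599 to 110327 in healthy skin. Erythroid markers (2 of 2) ranged from 2830 to 7693 CPM in cSCC and from 2679 to 10785 in papilloma. In hyperplastic skin the range was 1886 to 12520 CPM and in healthy skin 2212 to 6924. Within cSCC the leukocyte sum of cSCC 3 was 76936 CPM, inside the range of the other 4 carcinomas. Endothelial markers (2 of 2) were highest in cSCC 3 among carcinomas, at 19035 CPM, against 8811 to 15708 in the others. They summed to 9862 to 15936 CPM in papilloma, 14828 to 37124 in hyperplastic skin and 23610 to 43320 in healthy skin.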

How the data were processed

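Small RNA of 20 mouse skin biopsies was sequenced on the SOLiD system, per the labels' protocols, after size selection of the libraries on acrylamide gels. The authors deposited 1 table of whole-number read counts, without normalization, for each feature in each library. The build was mm9, per the submitters' processing notes. How reads were aligned and counted, how those with several matches were treated and whether features were filtered is not given in the sources used here. The smallest total of any feature is 21 counts.

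The 68 members and all lists were chosen with earlier results of these data known. All 1137 mature miRNAs were filtered with filterByExpr by group, which left 850, and scaled with TMM factors (0.637 to 1.67). The filter asks for at least 10 counts at the median library size in any 5 libraries, and 15 in all. A member can thus pass through tumour libraries alone. On healthy and hyperplastic libraries alone it kept 41 members, and 0 were called. Leaving out 1 library eased it, with 870 miRNAs tested without papilloma 4 and 885 without cSCC 3. One edgeR 4.0.16 quasi-likelihood F model (R 4.3.3, limma 3.58.1) covered all 20 libraries with 1 term for each group. P-values are two-sided and Benjamini-Hochberg adjusted over the 850, with a threshold of 0.05. SEs are the log2 fold change divided by the root of F. The script was tested on simulated counts.

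Named with values are the 8 members with the highest mean CPM, up to 4 further members with the largest change each way per comparison among those past the threshold with a mean of at least 20 counts, the 3 smallest p-values where none passed, and the 4 smallest p-values across the groups. Each comparison was repeated with other scaling, filters, tools (DESeq2 1.42.0) and without each library. Counting error alone limits members with few reads.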

Additional observations from a re-analysis of the deposited data

Results flagged for a closer look

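In 88 sets of 5 libraries (the summed level and the 21 named miRNAs in 4 groups), the highest or lowest library was compared with the rest by Dixon's test (critical value 0.71), which by chance picks about 1 set in 20. It picked 2. miR-466l-5p stood at 6.06 CPM in hyperplastic 1, against 1.28 to 2.10 CPM in the other 4 hyperplastic libraries, from 21 counts against 4 to 11. miR-669o-5p stood at 1.59 CPM in healthy 5, against 4.57 to 5.18 CPM in the other 4 healthy libraries, from 5 counts against 13 to 20. The carcinoma library with low cluster levels, cSCC 3, was not picked in any set.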

How the results depend on the processing

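Against papilloma, the carcinoma count of 24 stayed within 1.5 times of itself in 7 of 10 settings and with any 1 library left out (18 to 27, median 0.91 to 1.28). Total counts without factors gave 14, the 6 abundant members alone 3, and the replicate block 15. Whether the labels' numbers pair the samples is not known. Of 13 same-numbered pairs, 1 correlated above 0.1 (-0.149 to 0.197). Weak correlation in so few pairs cannot decide this, since the labels do not name the mouse. For cSCC against healthy skin (46), the abundant members alone gave 6, abundant factors a median of 2.26, and leaving out 1 library 35 to 46 (1.35 to 1.62). For papilloma against healthy skin (16, median 0.50), abundant factors gave 29 (1.18), total counts 28 (1.18), no filter 10 (0.17), abundant members alone 4 (1.36), no scaling for depth 6, 3 higher and 3 lower (-0.10), omitting papilloma 4 and papilloma 6 4 (-0.026), and leaving out 1 library 10 to 17 (0.14 to 0.46), the lowest without papilloma 4, where 1 of the 10 was lower. Across the groups (49, against 56% of all miRNAs), abundant members alone gave 6 of 6, no scaling 32 and leaving out 1 library 40 to 51. Shares over all miRNAs were not taken for the abundant set, the unscaled test across the groups or most refits without 1 library. Counts from those settings are therefore not read as results about the cluster. For hyperplastic skin the median of -0.14 was 0.11 on total counts, 0.27 without scaling and -0.33 to -0.10 with 1 library left out, with 0 calls throughout. The unscaled fit and the one without papillomas 4 and 6 were chosen after seeing the data. Fewer members tested accounts for the low counts of the abundant set, and for the others the cause was not tested. Of 1229 refits of the 42 called results of named members, 1182 kept their call, 47 lost it and 0 turned. Those members were chosen mostly for high level or large change, so this share does not stand for all calls. Over all called members, 3 of 16 for papilloma against healthy skin kept their call throughout. So did 28 of 46 for cSCC against healthy skin and 14 of 24 for cSCC against papilloma. These 3 counts leave out the setting restricted to abundant miRNAs. Keeping members with identical counts once changed nothing, since there are none.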
